A study of Mus musculus and Sus scrofa with 30 samples.

Results

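The genes described here code for the protein subunits of the respiratory chain and the ATP synthase that are made from nuclear DNA. They were chosen by symbol: protein-coding genes outside the mitochondrial chromosome whose names belong to the Nduf series A, B, C, S and V (complex I), Sdha to Sdhd (complex II), the Uqcr series and Cyc1 (complex III), Cox4 to Cox8 (complex IV) or the Atp5 series (complex V). This rule found 85 of 24843 genes in the table of the mouse line 3T3-L1 and 74 of 34307 genes in the table of pig dedifferentiated fat (DFAT) cells. Of these, 79 mouse and 71 pig genes had a mean of at least 10 normalized counts over the 15 libraries of their table and were tested. The mouse genes below that mean were Ndufa4l2, Cox4i2, Cox6a2, Cox6b2, Cox7a1 and Cox8b, and the pig genes were COX6B2, COX7B2 and COX8H. By complex, the tested mouse genes numbered 37, 4, 9, 12 and 17 for complexes I to V, and the pig genes 33, 4, 8, 12 and 14.

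The study compared natural compounds for their effect on the making of fat cells. Each kind of cell had 5 groups of 3 libraries, all harvested on day 5 of adipogenic differentiation, and no group was left without the inducing mix. For 3T3-L1 the mix held IBMX at 37.5 µM, insulin at 0.75 µg/mL and dexamethasone at 75 nM, with serum at 10%. For DFAT it held biotin at 20 µM, pantothenate at 10 µM, IBMX at 12.5 µM and dexamethasone at 0.5 µM, with serum at 2%. The groups received DMSO as the vehicle, dicoumarol, magnolol, dicoumarol with magnolol (the combination) or rosiglitazone. Dicoumarol is a vitamin K antagonist, magnolol a plant compound from magnolia bark, and rosiglitazone a drug that activates the fat cell receptor PPARγ. The labels do not state at which doses. The line 3T3-L1 is an established mouse embryonic fibroblast line that can turn into fat cells; DFAT cells are mature fat cells, here labelled as from subcutaneous fat of the pig, that lost their fat and returned to a fibroblast-like state in culture.

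The respiratory chain sits in the inner mitochondrial membrane. Complex I takes electrons from NADH and complex II from succinate, ubiquinone carries them to complex III, cytochrome c carries them on to complex IV, and complex IV passes them to oxygen. The proton gradient built on the way drives complex V, the ATP synthase. Complex II is coded wholly by nuclear genes, while the other complexes also hold subunits made from mitochondrial DNA, so both genomes have to supply parts. White preadipocytes are known to build up mitochondria as they become fat cells.

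The promoters of 4 mouse members are printed to show the DNA before genes that rose with rosiglitazone, 1 for each element searched, and before a gene that did not pass the test. Each is the 250 bases before the RefSeq start site on the GRCm38.p6 build, 5′ to 3′ on the gene's strand. The search used short core elements for NRF1 (TGCGCA), for ETS factors such as GABPA (CCGGAAG) and for receptors of the ERR kind (AAGGTCA), on both strands, and capitals mark a match on either strand; none of these elements contains another. Ndufa9 (chr6:126849145-126849394, minus strand) holds the NRF1 element, Uqcr11 (chr10:80406822-80407071, minus strand) the ETS element, Atp5g3 (chr2:73911327-73911576, minus strand) the ERR element read on the other strand, and Cox7a2l (chr17:83514334-83514583, minus strand) none of them. They were picked after their values were seen.
Ndufa9: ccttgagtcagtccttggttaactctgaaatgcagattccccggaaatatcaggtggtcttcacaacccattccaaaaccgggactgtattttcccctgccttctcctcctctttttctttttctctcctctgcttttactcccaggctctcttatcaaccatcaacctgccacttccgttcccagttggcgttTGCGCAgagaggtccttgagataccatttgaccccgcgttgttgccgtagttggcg
Uqcr11: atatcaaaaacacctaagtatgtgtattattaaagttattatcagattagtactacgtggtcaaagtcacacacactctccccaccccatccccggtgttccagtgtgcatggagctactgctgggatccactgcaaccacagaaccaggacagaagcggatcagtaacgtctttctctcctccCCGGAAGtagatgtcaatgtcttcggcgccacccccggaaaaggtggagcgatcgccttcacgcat
Atp5g3: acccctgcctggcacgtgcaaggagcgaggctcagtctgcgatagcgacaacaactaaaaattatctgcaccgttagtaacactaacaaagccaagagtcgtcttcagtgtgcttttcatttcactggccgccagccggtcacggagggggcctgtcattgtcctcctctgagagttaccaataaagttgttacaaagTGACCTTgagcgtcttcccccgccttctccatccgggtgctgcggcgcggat
Cox7a2l: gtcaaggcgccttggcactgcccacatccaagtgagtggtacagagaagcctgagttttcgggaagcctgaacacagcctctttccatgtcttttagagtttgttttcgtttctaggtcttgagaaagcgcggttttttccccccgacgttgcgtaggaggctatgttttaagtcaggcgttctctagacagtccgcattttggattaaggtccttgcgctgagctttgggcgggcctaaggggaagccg
RefSeq promoters matched 68 of the 85 mouse members by symbol. The NRF1 element was found in 14 of them (20.6%), against 8.30% of 17491 protein-coding promoters of the same length. The ETS element was found in 11 members (16.2%, against 9.14% of all), and the ERR element in 5 (7.35%, against 3.55%). The set of all promoters was not matched to the members for expression or base content. Among tested members, the change with rosiglitazone was nearly the same with and without each element: the median log2 fold change was 0.92 in 14 members with the NRF1 element and 0.94 in 51 without it, 0.93 in both classes for the ETS element, and 0.91 in 5 members with the ERR element and 0.93 in 60 without it. A match of letters is a description and not a binding site.

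Estimated depth was 22.8 to 30.7 M reads in the 3T3-L1 libraries and 44.8 to 70.4 M in the DFAT libraries. The members together took 0.556% to 1.20% of the normalized counts of a 3T3-L1 library and 0.239% to 0.317% of a DFAT library. Fibroblast markers were high in both kinds of cell: the sum of 6 listed preadipocyte or fibroblast genes was 235980 to 260870 in the 3T3-L1 vehicle libraries, and that of the 5 listed for the pig was 1581900 to 1734100 in the DFAT vehicle libraries. In 3T3-L1, vehicle replicate 2 stood apart: the median over the 79 genes of their log2 difference from the vehicle mean was -0.23 in it and 0.12 and 0.11 in the others. Genes with longer transcripts were higher in that library, where length is that of a gene's longest protein-coding transcript. The Spearman correlation between length and difference was 0.446 over 78 members and 0.45 over the 12153 tested genes with such a transcript. Among the members the same correlation was 0.449 in magnolol replicate 3, 0.43 in magnolol replicate 2 and -0.407 in vehicle replicate 3. Over the 12153 genes it ran from -0.399 in rosiglitazone replicate 1 to the value of vehicle replicate 2. All differences are from the vehicle mean, so the vehicle libraries are tied to each other, and genes are not independent replicates. The main counts and medians against the 3T3-L1 vehicle are given below with and without vehicle replicate 2. The labels do not say whether libraries of a group came from separate cultures, so p-values measure the spread between these libraries. In bulk RNA, fewer cells of a type and less RNA per cell cannot be told apart.

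In 3T3-L1, 77 of 79 members rose with rosiglitazone and none fell (limma, Benjamini-Hochberg adjusted p under 0.05, as in every call below). Over all 15723 genes tested, 40.1% were called and 20.3% were called higher. The median log2 fold change was 0.92 over the members, with a range from -0.07 to 1.52, and -0.0015 over all genes; fold changes are on the scale log2(normalized count + 1). In 76 members every rosiglitazone library lay above every vehicle library, which was so for 23.5% of all genes. Without vehicle replicate 2, 72 members were called with a median of 0.81. By complex, I to V, there were then 33, 4, 9, 11 and 15 calls with medians of 0.73, 0.72, 1.03, 0.88 and 0.81. Rosiglitazone replicate 1 was the highest library, with a median difference of 1.16 against 0.75 and 0.88.

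**Figure D1:**
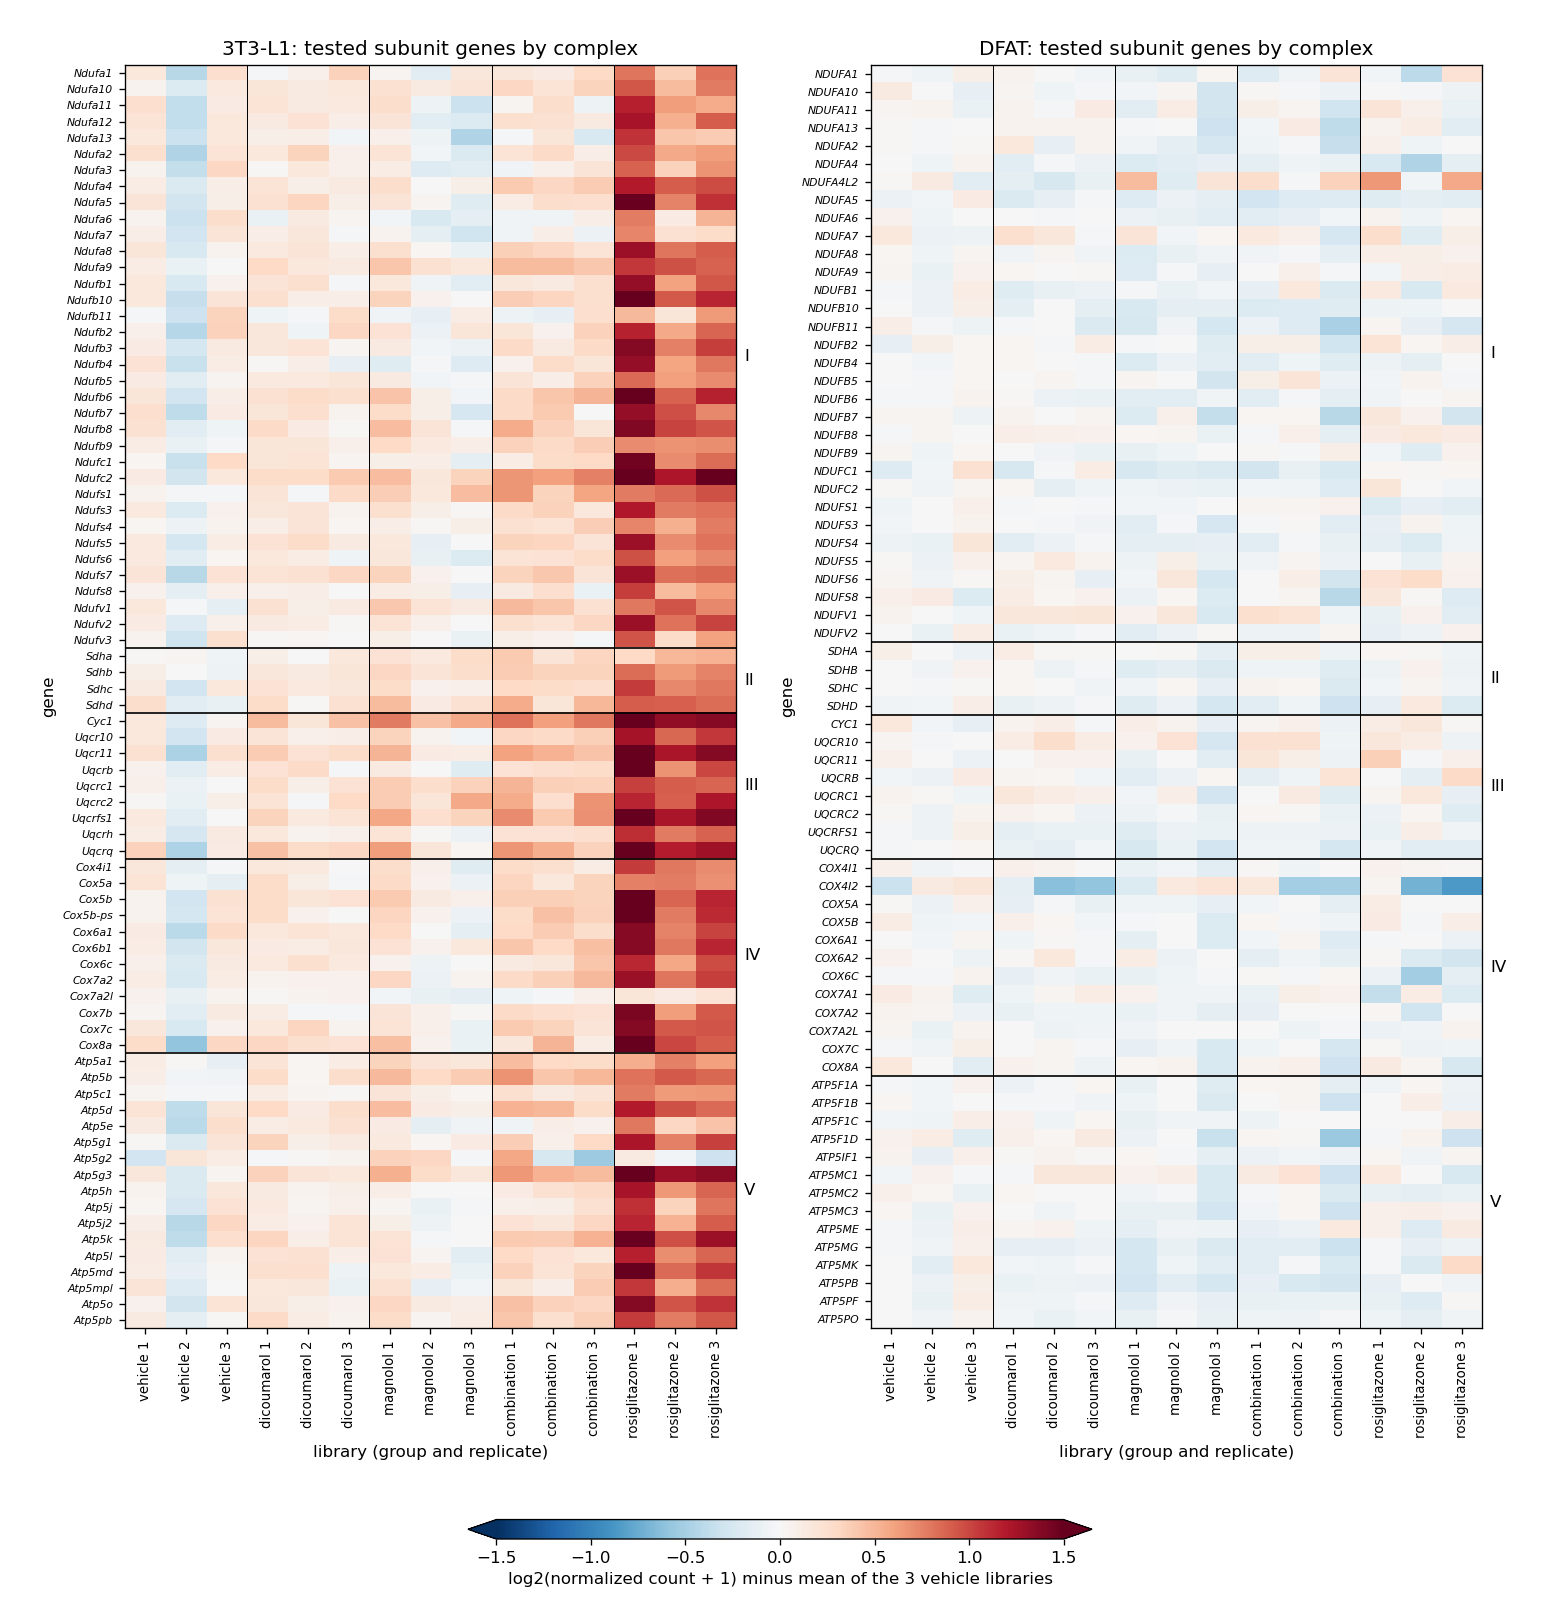
Each row is a tested subunit gene (1 per table is not shown), ordered by complex (I to V, marked at the right), and each column a library; color is log2(normalized count + 1) minus the mean of the 3 vehicle libraries, and values beyond 1.5 take the end color. The rosiglitazone columns of 3T3-L1 are red for nearly all genes, vehicle replicate 2 is blue for most, and the DFAT panel is pale throughout except for COX4I2 and NDUFA4L2.

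Complex I, the largest of the complexes, had all 37 tested genes called higher with rosiglitazone, with a median log2 fold change of 0.87. Ndufc2, an accessory subunit of the membrane arm, gave 862, 656 and 881 normalized counts in the vehicle libraries and 2619, 1836 and 2273 with rosiglitazone. The groups did not overlap, and the log2 fold change was 1.48 ± 0.13 (SE, n = 3 per group; limma adjusted p = 7.61e-07). Ndufs1, the iron-sulfur subunit of the NADH-oxidizing arm, went from 2250, 2129 and 2112 to 3727, 3903 and 4179. Its log2 fold change was 0.86 ± 0.11 (SE; limma adjusted p = 1.44e-05), again without overlap. Ndufv1, which binds NADH and the flavin, rose by 0.82 ± 0.10, and Ndufs7, which carries the last iron-sulfur cluster, by 0.99 ± 0.16 (log2 fold change, SE). The smallest changes of the complex were 0.41 for Ndufa7 and 0.44 for Ndufb11, both named after their values were seen.

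All 4 genes of complex II, the succinate dehydrogenase, rose with rosiglitazone, with a median log2 fold change of 0.80. Sdhb, the iron-sulfur subunit, gave 1210, 1131 and 1082 normalized counts with vehicle and 2042, 1769 and 1907 with rosiglitazone. The groups were apart, and the log2 fold change was 0.74 ± 0.08 (SE; limma adjusted p = 3.5e-06). The membrane anchors Sdhc and Sdhd rose by 0.85 ± 0.11 and 0.88 ± 0.13, and Sdha, the flavoprotein that oxidizes succinate, by 0.44 ± 0.09 (log2 fold change, SE).

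Complex III had the highest median log2 fold change of the complexes with rosiglitazone, 1.09, with all 9 genes called. This order of medians was not tested. Cyc1, the cytochrome c1 subunit, gave 1260, 992 and 1162 normalized counts with vehicle and 3261, 2850 and 2924 with rosiglitazone. Uqcrfs1, the Rieske iron-sulfur protein, went from 1912, 1547 and 1722 to 5354, 4033 and 4507. Uqcr11, a small accessory subunit, went from 960, 589 and 962 to 3168, 1903 and 2115. In each of these genes the lowest rosiglitazone library exceeded the highest vehicle library, and the log2 fold changes were 1.41 ± 0.11, 1.42 ± 0.12 and 1.52 ± 0.19 (SE), the last being the largest among all members. Uqcrc1, a core protein, rose by 0.94 ± 0.08.

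In complex IV, cytochrome c oxidase, 11 of 12 genes rose with rosiglitazone, and the median log2 fold change was 1.04. Cox4i1, the usual isoform of subunit 4, gave 7448, 6004 and 6554 normalized counts with vehicle and 13734, 11489 and 10820 with rosiglitazone, a log2 fold change of 0.85 ± 0.12 (SE; limma adjusted p = 5.12e-05). Cox5a and Cox5b rose by 0.73 ± 0.11 and 1.23 ± 0.16. Cox5b-ps, by its symbol a pseudogene copy of Cox5b, is listed as protein-coding, and how reads were split between the pair is uncertain. The gene of complex IV that was not called was Cox7a2l, chosen for mention after its values were seen, whose product helps to join complexes III and IV. It gave 5648, 4998 and 5638 with vehicle and 6148, 5882 and 6225 with rosiglitazone; the groups did not overlap, yet the log2 fold change was 0.17 ± 0.08 (SE; limma adjusted p = 0.0908).

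In complex V, 16 of 17 genes rose with rosiglitazone, with a median log2 fold change of 0.91. Atp5b, the catalytic beta subunit, gave 16884, 15430 and 15194 normalized counts with vehicle and 27851, 29906 and 28850 with rosiglitazone, a log2 fold change of 0.87 ± 0.10 (SE; limma adjusted p = 6.55e-06). Atp5a1, the alpha subunit, rose by 0.64 ± 0.09. The genes for subunit c, which forms the rotating ring, differed: Atp5g3 rose by 1.40 ± 0.12 and Atp5g1 by 1.00 ± 0.14, while Atp5g2 gave 34.7, 48.3 and 46.3 with vehicle and 46.7, 41.5 and 34.3 with rosiglitazone. Its groups overlapped and its log2 fold change was -0.07 ± 0.26 (SE; limma adjusted p = 0.851). These genes code for the same mature protein and have processed copies, so their counts may be split in ways that the files do not show.

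**Figure D2:**
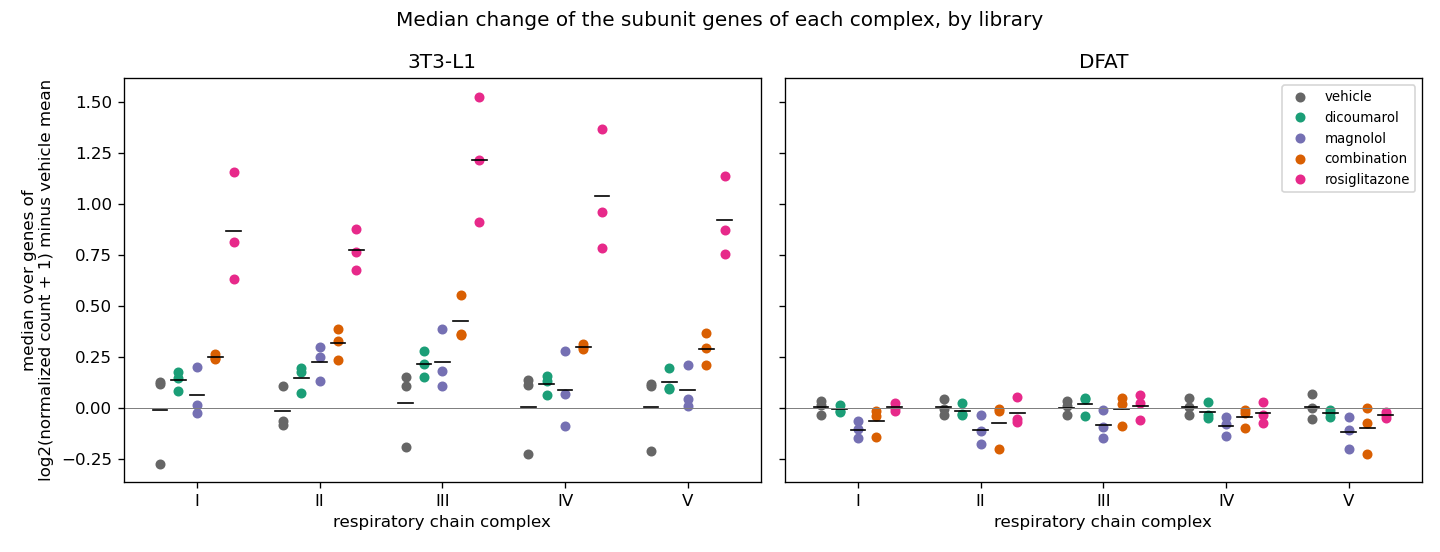
Points are libraries, grouped by complex (x axis) and colored by treatment; the y axis is the median over the tested genes of a complex of log2(normalized count + 1) minus the vehicle mean, and bars are means of 3 libraries. In 3T3-L1 all rosiglitazone libraries lie above the others in every complex, and in DFAT all points lie between -0.23 and 0.07.

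Markers of the fat cell also rose with rosiglitazone in 3T3-L1. Under magnolol the median log2 fold change was 2.46 over the 9 tested adipocyte markers and 0.09 over the members. Among 9 tested adipocyte markers in 3T3-L1, 0 were called higher under dicoumarol, 5 under magnolol, 8 under the combination and 9 under rosiglitazone. Over all genes 0%, 1.07%, 3.86% and 20.3% were called higher. Without vehicle replicate 2 these counts were 0, 3, 7 and 9; the magnolol count was also 3 when vehicle replicate 3 or magnolol replicate 1 or 3 was left out, and the combination count was 5 without combination replicate 1. The summed normalized counts of the 10 listed adipocyte genes were 44055 to 62197 with vehicle, 61623 to 96370 with dicoumarol, 86892 to 131600 with magnolol, 114270 to 179200 with the combination and 316870 to 561810 with rosiglitazone. All 6 preadipocyte or fibroblast markers fell with rosiglitazone, to a sum of 138020 to 179550, while 19.9% of all genes were called lower. Of the 8 listed brown or beige fat markers 4 could be tested. The defining genes Ucp1 and Cidea gave at most 1.71 and 1.95 normalized counts in any 3T3-L1 library, while the sum of the list was 173 to 207 with vehicle and 237 to 447 with rosiglitazone. Elovl3, an enzyme of fatty acid elongation, gave 0, 0 and 2.32 with vehicle and 32.5, 28.3 and 59.3 with rosiglitazone and was called higher (log2 fold change 4.71, limma adjusted p = 0.000175), though leaving out any rosiglitazone library took its mean below the filter. Ppargc1a, Cpt1b and Dio2 were not called against vehicle. Summed skeletal muscle markers stayed between 64.3 and 115 and endothelial markers between 6.3 and 29.5, and macrophage markers were 234 to 270 with vehicle and 123 to 172 with rosiglitazone. The part of any of these in the changes of the subunit genes was not tested.

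The combination of dicoumarol and magnolol gave a smaller rise in 3T3-L1. It called 14 of 79 members higher and none lower, against 5.22% of all genes called and 3.86% called higher. The median log2 fold change was 0.27 over the members and -0.0089 over all genes, and 75 members were above 0. The calls fell on 6 genes of complex I, 1 of complex II, 4 of complex III, none of complex IV and 3 of complex V. With the replicate number as a block, which fits these libraries since same-numbered ones deviated together, 32 members were called, 3 of them in complex IV (Cox5a, Cox6b1 and Cox7a2). Every share of all genes called, here and below, is from the fit without the block. Counts with the block therefore have no such share beside them and are not read as particular to the members. Without vehicle replicate 2 or without vehicle replicate 3, 8 were called, and without combination replicate 1, 4 were; the median without vehicle replicate 2 was 0.16, with 66 members above 0. Without that library the calls by complex, I to V, were 3, 1, 3, 0 and 1.

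Cyc1 changed most with the combination, with 1989, 1737 and 1955 normalized counts against 1260, 992 and 1162 for vehicle. Its log2 fold change was 0.74 ± 0.11 (SE; limma adjusted p = 0.00151), and the groups were apart. Ndufc2 gave 1254, 1214 and 1344 with the combination, all above its vehicle values, a log2 fold change of 0.68 ± 0.13 (limma adjusted p = 0.00583). Atp5b gave 25192, 21174 and 22432, a log2 fold change of 0.53 ± 0.10 (limma adjusted p = 0.00419). These 3 genes passed the threshold in every alternative run, with adjusted p of at most 0.0151, 0.0325 and 0.0399. Other core subunits called included Ndufs1 (0.53), Ndufv1 (0.38), Sdhb (0.35), Uqcrfs1 (0.60), Uqcrc1 (0.40), Atp5a1 (0.34) and, of the subunit c genes, Atp5g3 (0.55). Each of these lost its call without combination replicate 1, with adjusted p from 0.0655 for Ndufs1 to 0.234 for Atp5a1. Without vehicle replicate 2, Atp5a1 (limma adjusted p = 0.0914), Ndufv1 (0.112) and Atp5g3 (0.0518) were not called either. Without vehicle replicate 3, Sdhb and Ndufv1 were not called, and Ndufv1 was not without combination replicate 2. Atp5a1 lost its call without any single vehicle or combination library. Among genes outside the panel of core and isoform genes, Ndufa9 (0.45), Ndufb9 (0.34) and Uqcrc2 (0.49) were called as well.

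**Figure D3:**
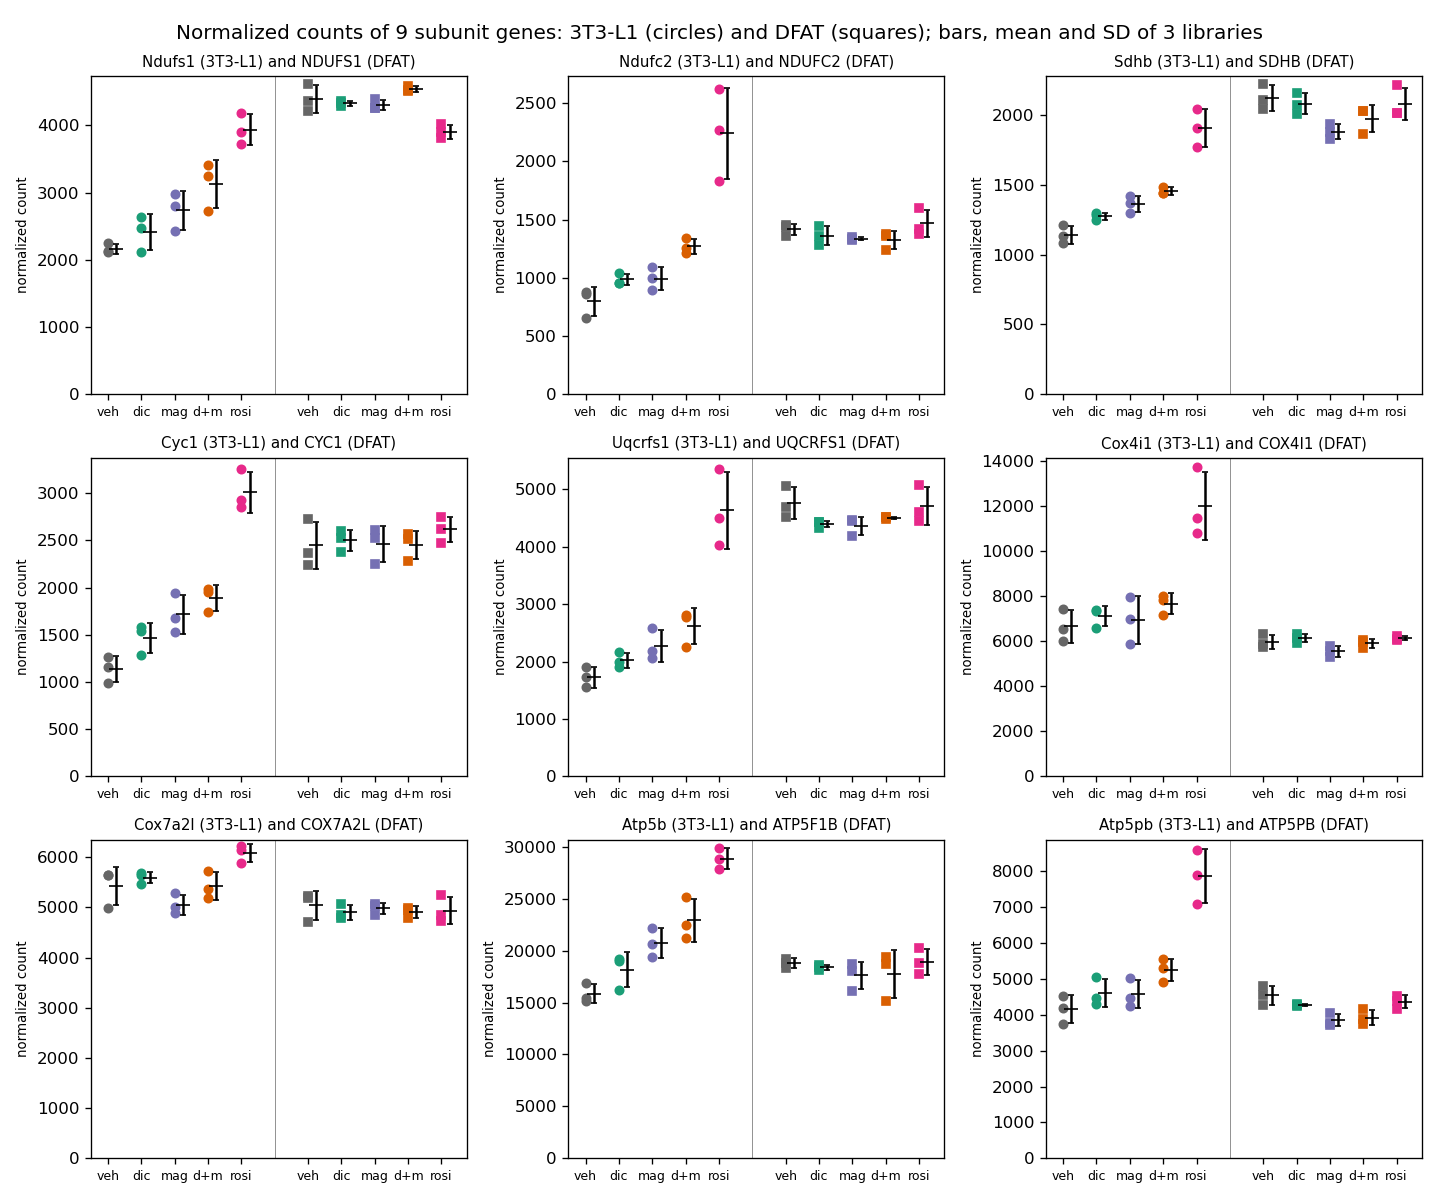
Normalized counts (y axis, from 0) of 9 subunit genes in each library of vehicle (veh), dicoumarol (dic), magnolol (mag), the combination (d+m) and rosiglitazone (rosi), circles for 3T3-L1 and squares for DFAT; bars are mean and SD of 3 libraries. In 3T3-L1, Cyc1 runs from 992 to 1260 with vehicle to 2850 to 3261 with rosiglitazone, and in DFAT it lies between 2244 and 2749 in all groups; levels are not comparable between the tables, which were normalized separately.

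Magnolol alone called a single member in 3T3-L1, Cyc1, against 1.23% of all genes called and 1.07% called higher. Cyc1 gave 1939, 1533 and 1681 normalized counts with magnolol, each above the vehicle values, a log2 fold change of 0.59 ± 0.11 (SE; limma adjusted p = 0.0187). The call was lost when vehicle replicate 2 (adjusted p = 0.0815) or 3 (0.0554), or magnolol replicate 1 (0.13) or 3 (0.0748), was left out. Over the members the median log2 fold change was 0.09, with 61 of 79 above 0 and 16 at an unadjusted p under 0.05. Without vehicle replicate 2 the median was -0.02 and 34 were above 0, and without magnolol replicate 1 it was 0.01 with 41 above 0. With the replicate block 9 members were called: Cyc1, Uqcrc1, Uqcrc2, Uqcrfs1, Ndufa9, Ndufs1, Sdhb, Atp5b and Atp5g3. Split at a transcript length of 891.5 bases, the magnolol difference had a median of 0.05 in the 39 shorter members and 0.13 in the 39 longer ones. The rosiglitazone difference had medians of 1.00 and 0.87.

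Dicoumarol alone called no member in 3T3-L1 by limma, and no gene of any kind (0%). At an unadjusted p under 0.05 there were 4 members, and 78 of 79 had a log2 fold change above 0, with a median of 0.15. Without vehicle replicate 2 the median was 0.03 and 46 were above 0. Cyc1 gave 1579, 1289 and 1537 normalized counts, a log2 fold change of 0.37 ± 0.11 (SE) with a limma adjusted p near 1 in the fit without the block and 0.0137 with it, the only member called there. In 8 members every dicoumarol library lay above every vehicle library, against 3.15% of all genes.

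Between treatments in 3T3-L1, rosiglitazone was higher than the combination in 73 of 79 members, against 18.3% of all genes called and 9.53% called higher. The median log2 difference was 0.66, and the largest was 1.00 ± 0.19 (SE) for Uqcr11, whose combination libraries gave 1240, 1174 and 1102. Members not called here included Ndufa1, Ndufb11, Sdha, Cox7a2l and Atp5g2. Sdha differed by 0.14 ± 0.09 on the log2 scale (SE; limma adjusted p = 0.258), and its groups overlapped. The combination did not differ by limma from dicoumarol in any member (18 at an unadjusted p under 0.05; 0.0254% of all genes called), but with the replicate block 8 were higher, among them Cyc1 (log2 difference 0.37, adjusted p = 0.00431) and Uqcrfs1 (0.37, 0.00527). No member was called by limma between the combination and magnolol (6 at an unadjusted p under 0.05; 0% of all genes) or for the interaction of dicoumarol and magnolol (0 at an unadjusted p under 0.05; 0% of all genes), with or without the block.

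**Figure D4:**
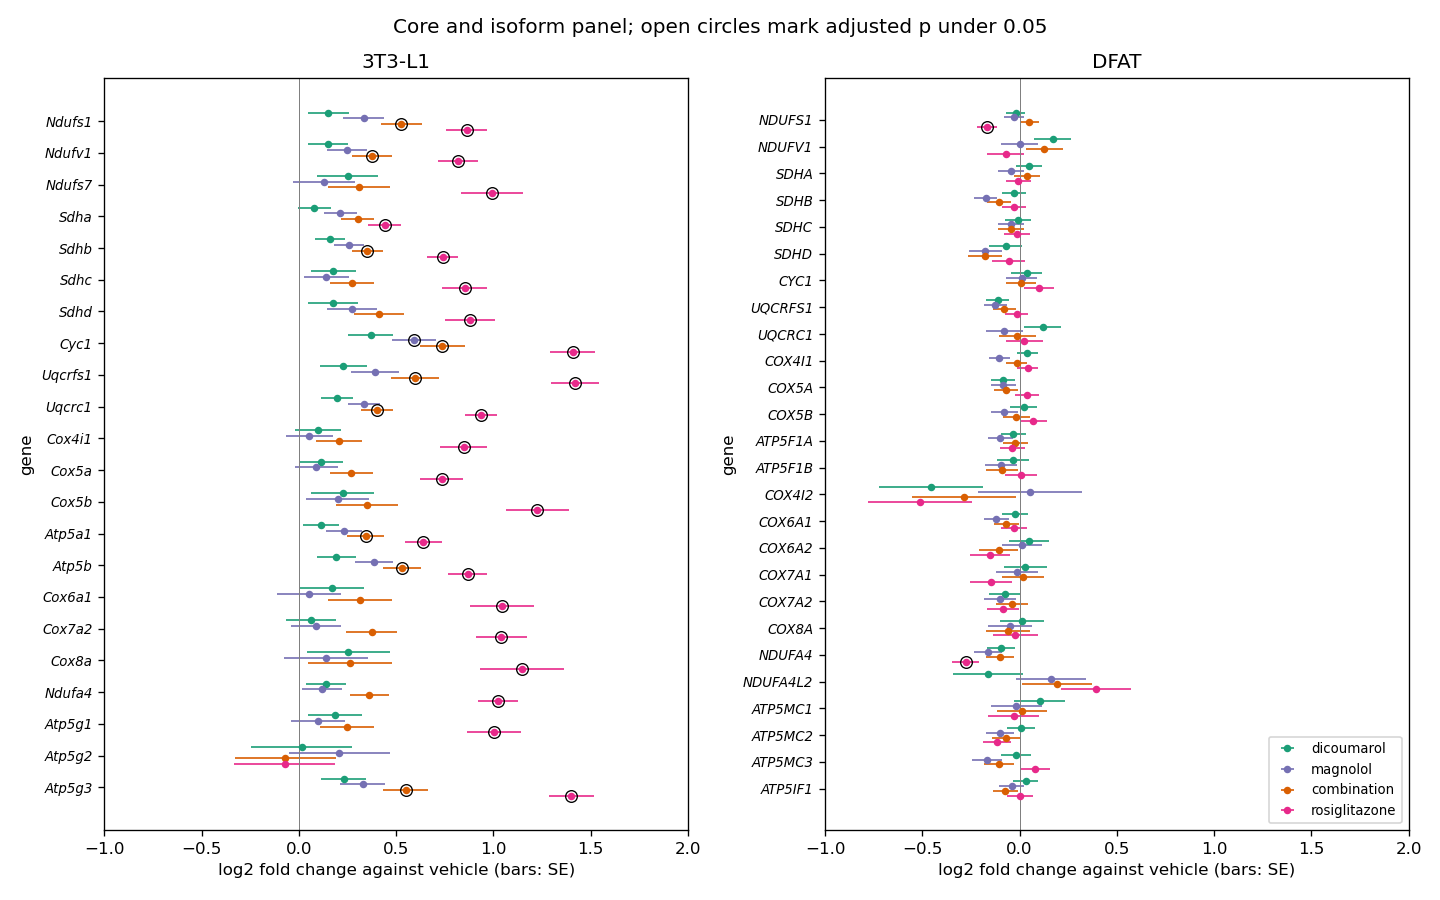
Log2 fold change against vehicle (x axis) of core and isoform genes, with bars of 1 SE, colored by treatment; open circles mark a limma adjusted p under 0.05. In 3T3-L1 the rosiglitazone points lie farthest to the right for every gene shown but Atp5g2, and in DFAT circles mark rosiglitazone in NDUFS1 and NDUFA4.

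Tissue isoforms differed between the tables. Cox7a1 and Cox8b, known from brown fat and muscle, stayed below the tested mean in 3T3-L1: Cox7a1 gave 2.67, 0 and 1.16 normalized counts with vehicle and 15.7, 7.61 and 7.41 with rosiglitazone, and Cox8b 0 in each vehicle library and 4.19, 0 and 6.17 with rosiglitazone. Cox4i2, known from lung, gave at most 7.7 in any 3T3-L1 library, and Cox6a2, known from heart and muscle, at most 6.33. In DFAT the muscle isoform COX7A1 gave 696, 665 and 564 with vehicle and 500, 691 and 555 with rosiglitazone, and COX6A2 269, 259 and 243 against 260, 223 and 212; both pairs overlapped and neither was called. COX4I2 had 40.6, 56.0 and 58.0 with vehicle, and NDUFA4L2, known from hypoxic cells, 197, 213 and 173. The largest difference of NDUFA4L2 was with rosiglitazone, at 305, 189 and 287, a log2 fold change of 0.39 ± 0.18 (SE; limma adjusted p = 0.21), with overlap. ATP5IF1, the inhibitor of the ATP synthase, found by the rule only in the pig table, gave 1552, 1379 and 1584 with vehicle and 1531, 1445 and 1540 with rosiglitazone, a log2 fold change that rounds to 0 (adjusted p = 0.99).

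In DFAT most subunit genes changed little under any compound. The lowest log2 fold changes of a single gene with rosiglitazone (-0.51), dicoumarol (-0.46) and the combination (-0.29) were in complex IV. The medians of that complex were -0.03, -0.01 and -0.05 in the same order. No gene counted in complex IV by its name was called against vehicle, though with the replicate block 1 was called lower with rosiglitazone. Rosiglitazone called 2 of 71 members lower and none higher, against 10.8% of all 14819 genes called and 5.02% called lower, with a median log2 fold change of -0.02. NDUFA4 sits with complex IV but is counted here in complex I by its name. It gave 2154, 2055 and 2225 normalized counts with vehicle and 1828, 1564 and 1933 with rosiglitazone. The groups did not overlap, and the log2 fold change was -0.28 ± 0.07 (SE; limma adjusted p = 0.0163). NDUFS1 gave 4207, 4356 and 4608 with vehicle and 3808, 4015 and 3896 with rosiglitazone, a log2 fold change of -0.17 ± 0.05 (SE; adjusted p = 0.0362). NDUFA4 lost its call when vehicle replicate 1 or 3 or rosiglitazone replicate 2 was left out (adjusted p from 0.0541 to 0.0576), and NDUFS1 when vehicle replicate 2 or 3 or rosiglitazone replicate 1 or 3 was left out (0.0809 to 0.127). CYC1, the most changed member of 3T3-L1 under the combination, gave 2727, 2369 and 2244 with vehicle and 2625, 2749 and 2477 with rosiglitazone in DFAT, a log2 fold change of 0.10 ± 0.08 (SE; adjusted p = 0.532).

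Magnolol called 1 of 71 members lower in DFAT, against 4.22% of all genes called and 1.27% called lower. This was ATP5PB, the peripheral stalk subunit b of the ATP synthase, with 4540, 4272 and 4800 normalized counts for vehicle and 3720, 4052 and 3776 for magnolol. All magnolol libraries lay below the vehicle libraries, with a log2 fold change of -0.24 ± 0.06 (SE; limma adjusted p = 0.0315). Over the members the median was -0.09, and 7 of 71 were above 0. The combination called 3 members lower, against 10.2% of all genes called and 4.06% called lower: ATP5PB (-0.21 ± 0.06, adjusted p = 0.0322), ATP5MG, the subunit g (-0.22 ± 0.06, 0.0286), and NDUFA5, an accessory subunit of complex I (-0.22 ± 0.07, 0.0405). NDUFA5 gave 1540, 1648 and 1645 with the combination and 1777, 1826 and 2054 with vehicle, and ATP5MG 2689, 2688 and 2405 against 2977, 2912 and 3175. The median over members was -0.06 with the combination, and -0.01 without combination replicate 3. For ATP5PB under magnolol, leaving out replicate 1 or replicate 3 of either group ended the call. Under the combination, ATP5PB lost its call without vehicle replicate 1 or 3 or combination replicate 2 or 3, ATP5MG without vehicle replicate 1 or 3 or combination replicate 3, and NDUFA5 without any single library other than vehicle replicate 1.

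These DFAT values depended on the scaling. With all libraries set to the same total, the median of all genes moved by -0.14 for magnolol, -0.17 for the combination and 0.18 for rosiglitazone against the combination, and 24, 28 and 32 members were called, lower for magnolol and the combination and higher for rosiglitazone against the combination. The members' medians were then -0.23, -0.22 and 0.24. Relative to the shift of all genes these medians were close to the values above. The share of all genes called under this scaling is not given, so the counts of called members are not read as particular to the members. The summed counts of the fibroblast markers were 2529900 to 2898100 with magnolol and 2521500 to 2997200 with the combination, above the vehicle libraries, and 1233600 to 1371900 with rosiglitazone, below them. The collagen genes COL1A1 (log2 fold change 0.86 with magnolol, 0.85 with the combination) and COL3A1 (0.57 and 0.55) were called higher. PDGFRA, a receptor that marks preadipocytes, was called lower under all compounds (dicoumarol -0.62, magnolol -0.34, combination -0.86, rosiglitazone -1.10). Under magnolol, leaving out any vehicle library or treated replicate 2 or 3 ended the PDGFRA call. The part of these genes in the scaling was not tested. The 3T3-L1 medians moved by less than 0.1 under the same change.

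Dicoumarol called no member in DFAT by limma (0 at an unadjusted p under 0.05), against 1.94% of all genes, and the median log2 fold change was -0.01. Rosiglitazone against the combination called 2 members lower and none higher, against 17.0% of all genes called and 8.79% called lower: NDUFS1 (log2 difference -0.22 ± 0.05, adjusted p = 0.00534) and COX6C, a small subunit of complex IV (-0.26 ± 0.08, adjusted p = 0.0374). COX6C gave 4802, 4670 and 4855 with the combination and 4474, 3295 and 4279 with rosiglitazone, so replicate 2 was the lowest and without it the adjusted p was 0.132. It also lost its call without any of the combination libraries, while NDUFS1 kept its call without each library in turn. With equal library totals, however, no member was called lower. Over all alternatives the highest limma adjusted p was 0.642 for NDUFS1 and 0.474 for COX6C. With the replicate block, whose numbers paired the libraries of these groups, 1 member (NDUFB8) was higher and 3 (NDUFS1, NDUFV1 and COX6C) were lower. No member was called by limma for the combination against dicoumarol (1 at an unadjusted p under 0.05; 2.35% of all genes), against magnolol (0; 0.621%) or for the interaction (0; 0.0810%).

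Adipocyte markers rose in DFAT all the same: of 9 tested, the compounds raised 4 (dicoumarol), 6 (magnolol), 8 (the combination) and 7 (rosiglitazone). Over all genes 0.911%, 2.96%, 6.11% and 5.80% were called higher. ADIPOQ, which codes for the hormone adiponectin, gave 23.7, 42.0 and 19.4 normalized counts with vehicle and 3534, 3688 and 4717 with rosiglitazone. In 66 members tested in both tables under the same symbol or its current name, the rosiglitazone log2 fold change was larger in the mouse table for all 66, with medians of 0.92 and -0.01. For the combination it was larger in 65, for magnolol in 61 and for dicoumarol in 60. The tables were normalized separately and differ in species, mix and serum, which cannot be told apart, and the difference between them was not tested.

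The partners of the subunit genes were counted from lists of assembly factors, electron carriers with their makers and feeders, regulators of mitochondrial genes and the 13 subunits coded by mitochondrial DNA. Ndufab1, by its symbol of the Nduf series, was not matched by the rule and was counted among the carriers and feeders. With rosiglitazone in 3T3-L1, where 20.3% of all genes were called higher, 40 of 52 assembly factors rose and none fell, with a median log2 fold change of 0.58; Ndufaf4, a factor for complex I, rose by 1.33 and Atpaf2, a factor for the ATP synthase, by 1.24. Of 18 carriers and feeders 16 rose, with a median of 0.92. Cycs, cytochrome c itself, gave 1566, 1070 and 1266 normalized counts with vehicle and 8641, 5499 and 8139 with rosiglitazone, a log2 fold change of 2.50. Coq8a, of ubiquinone synthesis, rose by 1.83. All 13 mitochondrial DNA subunits rose, with a median of 0.89, and the median difference per library was 1.34, 0.34 and 0.99. Of 14 regulators 8 rose: Ppargc1b, a coactivator of mitochondrial genes, went from 53.4, 35.9 and 46.5 to 663, 314 and 456, the receptor Esrra rose by 0.95 on the log2 scale and Tfam, the packaging protein of mitochondrial DNA, by 0.37. Without vehicle replicate 2, 35 assembly factors (median 0.48), 17 carriers and feeders, 11 mitochondrial DNA subunits (median 0.78) and 6 regulators were called higher.

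Under the combination in 3T3-L1, where 3.86% of all genes were called higher, 7 of 52 assembly factors, 9 of 18 carriers and feeders, 1 of 14 regulators (Ppargc1b, log2 fold change 1.90) and none of 13 mitochondrial DNA subunits rose. Cycs gave 3165, 2160 and 3073, a log2 fold change of 1.10. The 7 assembly factors were 5 without vehicle replicate 2, 4 without vehicle replicate 3 and 3 without vehicle replicate 1 or combination replicate 1, while 7 to 9 carriers and feeders and Ppargc1b were called without each library in turn. With magnolol, where 1.07% of all genes were called higher, 1 assembly factor (Uqcc1, 0.35), 4 carriers or feeders (Coq8a, Pdss1, Coq6 and Coq5, all of ubiquinone synthesis, at 0.80, 0.62, 0.48 and 0.46) and Ppargc1b (1.61) rose. The assembly factor lost its call without any single library, 0 to 2 of the carriers or feeders were called then (0 without vehicle replicate 2), and Ppargc1b lost its call without magnolol replicate 1. Dicoumarol called none in these lists. Against the combination, rosiglitazone was higher in 25 of 52 assembly factors, 14 of 18 carriers and feeders, 4 of 14 regulators and 9 of 13 mitochondrial DNA subunits and lower in none, with 9.53% of all genes called higher. Without rosiglitazone replicate 1 these counts were 6, 10, 2 and 3, and without combination replicate 2 they were 10, 10, 2 and 4.

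In DFAT no assembly factor was called against vehicle under any compound, of 47 tested. Rosiglitazone, with 5.80% of all genes called higher, raised 3 of 18 carriers and feeders: ETFDH, which passes electrons from fat oxidation to ubiquinone (log2 fold change 0.33), COQ8A (0.32) and CYCS (0.24). CYCS gave 4150, 3957 and 4565 with vehicle and 4827, 5068 and 5029 with rosiglitazone. Its call was lost without vehicle replicate 2, and that of COQ8A without vehicle replicate 3 or rosiglitazone replicate 1. PPARGC1A, the coactivator best known for raising mitochondrial genes, gave 5.92, 0 and 4.07 with vehicle and 17.7, 21.9 and 21.7 with the combination. With rosiglitazone it gave 64.1, 73.6 and 57.0, a log2 fold change of 4.32. The size of that change depends on the added 1 count, as the vehicle values were near 0. Of 14 tested regulators, PPARGC1A was the only 1 called higher with the combination or with rosiglitazone. With the combination 11 of the 14 were below 0. GABPA was called lower there (log2 fold change -0.21, limma adjusted p = 0.0491), against 4.06% of all genes called lower. Of the 13 mitochondrial DNA subunits, 2 rose with the combination (ND5, 0.80, and ND6, 0.85; 6.11% of all genes were called higher), all 13 were above 0, and the median was 0.45. Without vehicle replicate 1 or combination replicate 3 no such gene was called, and without combination replicate 2, 6 were. Per library, that median difference was 0.33, 0.18 and 0.88 with the combination and 0.28, 0.03 and 0.50 with magnolol, while the nuclear members gave -0.04, -0.01 and -0.14 and -0.10, -0.05 and -0.16. In both groups replicate 3 was the highest for the mitochondrial genes and the lowest for the nuclear ones.

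Between rosiglitazone and the combination in DFAT, 8.24% of all genes were called higher and 8.79% lower. Of the 47 assembly factors 5 were higher (TIMMDC1, COX10, UQCC2, SCO1 and NDUFAF6, at 0.18 to 0.31 on the log2 scale) and LYRM7, a factor for complex III, was lower (-0.26). Without single libraries 2 or 3 were called higher, and the LYRM7 call was lost without each library other than rosiglitazone replicate 3. Higher carriers and feeders numbered 5 of 18, led by CYCS (0.37, limma adjusted p = 0.000175) and COQ2, of ubiquinone synthesis (0.36, 0.00434), and 3 to 5 without single libraries. All 13 mitochondrial DNA subunits were lower with rosiglitazone than with the combination in their fitted difference, with a median of -0.52, and 5 were called (ND1, ND5, ND6, CYTB and ATP8). Of the mitochondrial genes none was called without combination replicate 3 or without rosiglitazone replicate 2, and 10 were without combination replicate 2.

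**Figure D5:**
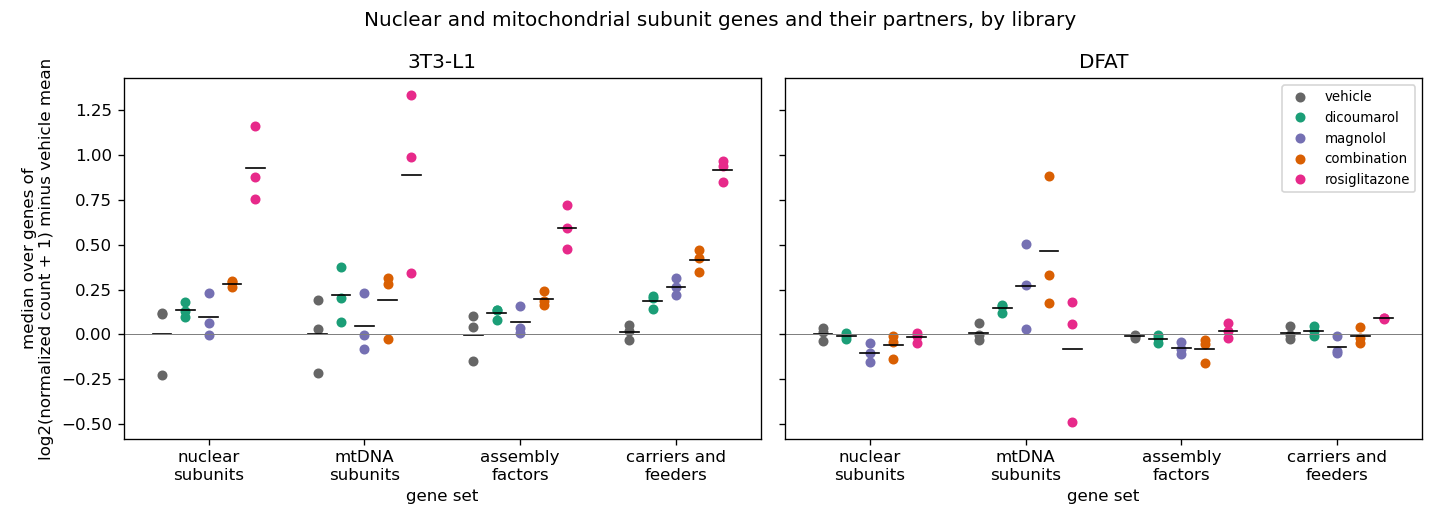
Points are libraries colored by treatment; the y axis is the median over the tested genes of a set of log2(normalized count + 1) minus the vehicle mean, and bars are means of 3 libraries, for nuclear subunits, mitochondrial DNA subunits, assembly factors, and carriers and feeders. In 3T3-L1 the rosiglitazone means are 0.93, 0.89, 0.60 and 0.92, and in DFAT the mitochondrial DNA subunits spread from -0.49 to 0.88 while the other sets stay within 0.16 of 0.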

How the data were processed

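RNA-seq libraries of 3T3-L1 and DFAT cells, 15 each, were prepared from poly(A)-enriched RNA with strand marking, per the labels' protocols. The authors deposited signal values, gene counts divided by DESeq2 size factors, as 1 table per species. The submitters' processing notes name bcl2fastq 2.19.1.403, STAR, DESeq2 and GRCm38. No label names the read counter, the annotation or the pig build. Mouse starts in the table matched GRCm38 for 2.18% of 24070 genes, so its coordinates are not printed. Values above 0 and under those of 20 reads were whole multiples of 1 read, within 0.02 read, in 82.0% to 83.1% (3T3-L1) and 89.8% to 91.0% (DFAT) of cases, so counts were not recovered and no count test was run.

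Genes with a mean of at least 10 were tested on log2(value + 1) with limma 3.58.1 (R 4.3.3), with a variance trend, all 5 groups of a table in 1 fit and Benjamini-Hochberg adjustment over all genes tested at 0.05. The script was tested on simulated data. Genes named were a panel of core subunits and isoforms and the 3 largest changes per direction among called members with a mean of at least 100. The values of 1 member are not reported here by name, though counts and medians include it. The members and lists were chosen with earlier results of these data known. Lists were assembly factors, carriers and feeders, regulators, mitochondrial DNA subunits and markers of adipocytes, brown fat, preadipocytes or fibroblasts, muscle, macrophages and endothelium. Replicate numbers paired the 3T3-L1 libraries: all 30 same-numbered pairs correlated above 0.1 in their deviations from group means (lowest 0.106, median 0.30). In DFAT this held only among magnolol, combination and rosiglitazone (lowest 0.105). Alternatives were other pseudocounts, filters, scalings, variance models, fits of fewer groups, the replicate block and leaving out each library.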

Additional observations from a re-analysis of the deposited data

Results flagged for a closer look

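Groups of 3 libraries were not searched for outlying libraries. Listed here are medians of complexes, of the members and of partner lists, and named genes called in either kind of cell, whose change against vehicle had the same sign in all 3 treated libraries of 1 kind of cell and the opposite sign in all 3 of the other. In each case the 3T3-L1 value was positive and the DFAT value negative. The rule sets no least size, and some listed values lie within the spread of the vehicle libraries. For complex V in DFAT the vehicle libraries ran from -0.06 to 0.07. The dicoumarol libraries (-0.04 to -0.01) and the rosiglitazone libraries (-0.05 to -0.02) lay inside that range. The tables were normalized separately, so these differences were not tested, and values are mean log2 differences from vehicle with 3T3-L1 minus DFAT last.

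With dicoumarol, complex V gave 0.13 and -0.03 (difference 0.15) and assembly factors 0.12 and -0.03 (0.14). With magnolol, complex II gave 0.23 and -0.11 (0.33), complex III 0.22 and -0.08 (0.31), complex V 0.09 and -0.12 (0.21), assembly factors 0.07 and -0.08 (0.15), carriers and feeders 0.27 and -0.07 (0.34), and ATP5PB 0.14 and -0.24 (0.38).

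With the combination, the median of all members was 0.28 and -0.06 (difference 0.35). By complex it was 0.25 and -0.06 for complex I (0.31), 0.32 and -0.07 for complex II (0.39), 0.30 and -0.05 for complex IV (0.35) and 0.29 and -0.10 for complex V (0.39). Assembly factors gave 0.20 and -0.08 (0.28). Among single genes the differences were 0.55 for ATP5PB, 0.43 for NDUFA5, 0.78 for NDUFC2, 0.46 for SDHB and 0.67 for UQCRFS1. With rosiglitazone, complex V gave 0.92 and -0.03 (0.96), NDUFA4 1.02 and -0.28 (1.30) and NDUFS1 0.86 and -0.17 (1.03). The 3T3-L1 values with dicoumarol, magnolol and the combination rest in part on vehicle replicate 2: without it the median log2 fold change over the members was 0.03, -0.02 and 0.16.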

How the results depend on the processing

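Counts are members called. No called value of a single gene changed direction under the alternatives run. Some uncalled medians over the members did, among them that of 3T3-L1 magnolol, as given above. The 3T3-L1 interaction median of 0.04 was -0.02 without vehicle replicate 1. The DFAT median of the combination against magnolol, 0.03, was -0.002 without combination replicate 2. In 3T3-L1, magnolol against vehicle (1 called) gave 0 without the variance trend and in a fit of only the groups compared, 2 with quantile normalization, and 0 to 1 when single libraries were left out. The combination against vehicle gave 4 to 14, and rosiglitazone against the combination 50 to 73, the lowest without rosiglitazone replicate 1. In DFAT, magnolol (1) gave 0 without the trend and with only the groups compared, and 0 to 1 without single libraries. The combination (3) gave 1 without the trend, 0 with only the groups compared, and 0 to 3 without single libraries. Rosiglitazone (2) gave 1 with equal library totals, 0 with only the groups compared, and 0 to 2 without single libraries. Rosiglitazone against the combination (2) gave 1 without the filter on low values, 1 without the trend, 0 with only the groups compared, and 1 to 3 without single libraries. Equal totals gave 24 for magnolol and 28 for the combination, all lower, and 32 for rosiglitazone against the combination. These 32 were all higher, while the 2 of the main fit were lower, so for that comparison the direction of the calls depended on the scaling. Causes were not tested.

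With the replicate block, where the numbers pair the 3T3-L1 libraries, dicoumarol gave 1, magnolol 9, the combination 32 and the combination against dicoumarol 8; the other 3T3-L1 counts stayed within 1.5 times. In DFAT the block gave 2 for magnolol, 5 for the combination, 4 for rosiglitazone and 4 for rosiglitazone against the combination. No share of all genes called with the block is given beside these counts. There the lowest same-numbered pair (-0.31, vehicle and rosiglitazone) lay below the lowest differently numbered pair (-0.28), so not every library correlated best with its own number. The median SE of a log2 fold change was 0.13 over 3T3-L1 members and 0.07 over DFAT members, which limits the size of change that could be called.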

Other observations

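Some genes beside the respiratory chain moved in DFAT. GPD2, which feeds electrons from glycerol phosphate into the chain, gave 12799, 10615 and 12487 normalized counts with vehicle and 8578, 7959 and 8776 with the combination, with no overlap, and fell by 0.50 on the log2 scale (limma). It fell by 0.40 with magnolol. CIDEA, a lipid droplet protein known from brown fat, rose with magnolol (1.15), the combination (1.87) and rosiglitazone (1.07), with 51.0 to 60.8 normalized counts with the combination against 9.30 to 19.3 with vehicle. The CIDEA call with magnolol was lost without vehicle replicate 1 or magnolol replicate 1 or 2, and that with rosiglitazone without vehicle replicate 1. DIO2, an enzyme that activates thyroid hormone and is on the same list, went the other way: it fell by 0.88 with dicoumarol, by 0.70 with magnolol and by 1.14 with the combination on the log2 scale, with 169, 185 and 222 normalized counts with the combination against 394, 434 and 439 with vehicle. Its magnolol call was lost without magnolol replicate 1, and it was not called with rosiglitazone. DES, the muscle filament protein desmin, rose with the combination (1.81), to 123, 155 and 139 from 21.1, 42.0 and 65.2.

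The summed muscle markers were 134 to 154 with vehicle and 258 to 311 with the combination, and MYOD1, which defines muscle precursors, was at 0 in each vehicle library. Summed macrophage markers lay between 669 and 1036 and endothelial markers between 149 and 239 over all DFAT libraries, and brown fat markers between 873 and 1214. In 3T3-L1, Ppargc1a, the partner of Ppargc1b, gave 121, 139 and 136 with vehicle and 127, 141 and 320 with rosiglitazone; the groups overlapped and it was not called.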
